A study of Mus musculus with 6 samples.

Results

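The 10 genes described here encode proteins of the Slit guidance pathway: the receptors Robo1 and Robo2, the ligand Slit3, the Slit-binding glypican Gpc1, the srGAP proteins Srgap1, Srgap2 and Srgap3, the actin regulators Enah and Vasp, and the tyrosine kinase Abl1. They were taken by gene symbol and not by a rule on their values, though earlier results of these data were known. All 10 are among the 20173 genes of the count table. RNA-Seq counts were available for 6 libraries of cultured primary sympathetic neurons. Of these, 3 came from control mice with floxed Slit2 alleles (SLIT2f/f in the labels, Slit2fl/fl below), and 3 came from mice in which Th-Cre had deleted the floxed Slit2 (SLIT2-knockout in the labels, Slit2th below). The floxed alleles are thus common to both groups, and the Th promoter directs Cre to cells that express tyrosine hydroxylase. Which cells of these cultures had lost Slit2 was not tested. The mice were 3-week-old males, and the sympathetic chains were cultured for 4 to 5 days before sequencing. Nothing in the labels says whether the libraries came from separate animals, so p-values measure only the spread between these libraries, part of which may be technical.

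Slit proteins are secreted guidance cues that repel growing axons through receptors of the Roundabout (Robo) family. Robo receptors have no enzyme activity of their own and act through the proteins that bind their cytoplasmic tails. The srGAP proteins switch off small GTPases, Enah and Vasp promote the growth of actin filaments, and Abl kinases act on both Robo and the actin cytoskeleton. Heparan sulfate proteoglycans such as glypicans bind Slit at the cell surface and help it to engage Robo.

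The libraries held between 1255939 and 3155406 counts, so that 3 counts, taken as the floor of detection, correspond to 0.951 to 2.39 CPM, where CPM are counts scaled to a common library size. Slit2, the deleted gene, stood at 44.4, 55.0 and 43.7 CPM in the Slit2fl/fl libraries and at 15, 11.4 and 15.2 CPM in the Slit2th libraries. It was thus lower in every Slit2th library, by 1.78 on the log2 scale, but not lost. The labelled cell type is neuron, yet Th itself had 0 counts in all 6 libraries, as had the neuronal marker Rbfox3. The 18 neuronal markers in the table summed to 201.2 to 591.9 CPM in Slit2fl/fl and 201.7 to 217.1 CPM in Slit2th, and the 15 glial markers to 6118.9 to 12002.4 CPM in Slit2fl/fl and 13645.9 to 20366.6 CPM in Slit2th. Only 5 of the 18 neuronal markers reached 1 CPM in 3 or more libraries, against 14 of the 15 glial markers. The highest neuronal marker, Tubb3, stood at 74.8 to 290 CPM over the 6 libraries. The 14 fibroblast markers summed to 7085.3 to 10032.1 CPM and 8915.1 to 11104.0 CPM, the 13 macrophage markers to 36.3 to 127.2 CPM and 126.2 to 667.1 CPM, and the 11 endothelial and mural markers to 36.3 to 117.9 CPM and 29.9 to 60.8 CPM, in Slit2fl/fl and Slit2th, respectively. Slit2fl/fl replicate 1 stood apart, with the highest neuronal and endothelial sums (591.9 and 117.9 CPM) and the lowest glial sum (6118.9 CPM). The values below are those of mixed cultures, in which fewer cells of a type and less RNA per cell cannot be told apart.

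To compare the genes with each other, CPM were divided by the length of each gene's exons. On this scale the cytoplasmic effectors had higher means than the receptors and the ligand. Vasp was highest, at 6.99 ± 1.87 CPM per kb (SD, n = 6 libraries), followed by Srgap2 at 5.83 ± 0.805 CPM per kb. Vasp exceeded Srgap2 in only 4 of 6 libraries, and with lengths taken from the longest transcript Srgap2 came first (9.13 against 8.26 CPM per kb), so their order is within the spread. Srgap1 (3.48 ± 2.04 CPM per kb) and Gpc1 (3.42 ± 3.23 CPM per kb) followed, each above the other in 3 libraries. Abl1 and Srgap3 were also alike on this scale, at 1.77 ± 0.578 and 1.73 ± 0.828 CPM per kb. With lengths taken from the longest transcript, Abl1 was higher (3.24 against 1.92 CPM per kb). Lowest were Enah (0.793 ± 0.336 CPM per kb), Robo2 (0.648 ± 0.386 CPM per kb), Slit3 (0.453 ± 0.351 CPM per kb) and Robo1 (0.148 ± 0.235 CPM per kb). Enah exceeded Robo2 in 4 of 6 libraries and Robo2 exceeded Slit3 in 5 of 6, so neighbours in this order overlapped. The median of all tested genes with a length was 3.66 CPM per kb. Only Vasp and Srgap2 had a mean above it, while Robo1 was higher than 0.725% of those genes, Slit3 than 8.16% and Robo2 than 13.2%.

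**Figure D1:**
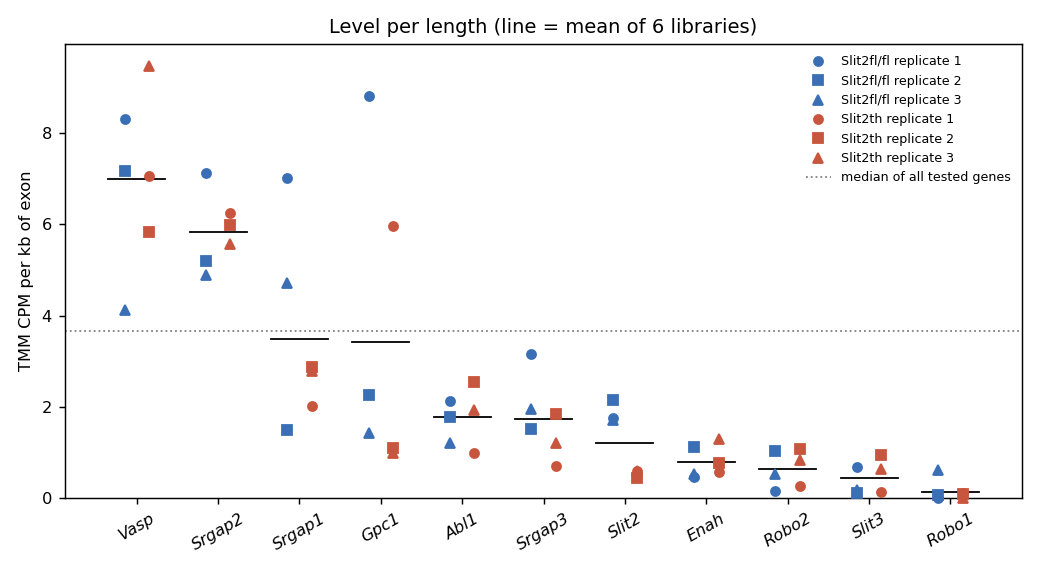
Level per length of the 10 genes and Slit2, as TMM-normalized CPM per kb of exon (vertical axis), with each library as a point, blue for Slit2fl/fl and red for Slit2th, and the mean of 6 libraries as a line. Vasp and Srgap2 lie above the dotted median of 3.66 CPM per kb in every library, and Robo1, Robo2 and Slit3 lie near the bottom.

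Receptor transcripts were scarce and came mostly from Robo2. Robo2 (ENSMUSG00000052516, minus strand of chromosome 16 of GRCm38, 73891839 to 74411825) had 9, 27 and 16 counts in the Slit2fl/fl libraries and 5, 38 and 25 counts in the Slit2th libraries. Scaled for depth, Slit2fl/fl held 2.88, 17.5 and 9.08 CPM, against 4.4, 18.1 and 14.1 CPM for Slit2th. In both genotypes replicate 1 was the lowest and replicate 2 the highest, and the groups overlapped throughout. The group means were 9.81 ± 7.32 and 12.2 ± 7.04 CPM (SD, n = 3 each), and the log2 fold change was 0.38 with a 95% interval from -1.24 to 2.0. Leaving out Slit2fl/fl replicate 1 brought this log2 fold change to -0.09, and leaving out Slit2fl/fl replicate 2 to 1.10.

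Robo1 (ENSMUSG00000022883, plus strand of chromosome 16, 72308306 to 73046095) had 25 counts in all. The Slit2fl/fl libraries had 0, 2 and 18 of them and the Slit2th libraries 2, 3 and 0, so that 72% of the Robo1 counts lay in Slit2fl/fl replicate 3. Only 2 libraries reached 3 counts, and the deepest library of the series, Slit2fl/fl replicate 1, had 0. Robo2 made up 82.8% of the counts of both receptors over the 6 libraries (120 of 145, exact binomial 95% interval 75.6 to 88.5%, counting error only), and their exon lengths are close (17.0 and 16.5 kb). Slit2fl/fl replicate 3 was the exception, at 47.1% Robo2 (29.8 to 64.9%), where the remaining libraries ran from 71.4% to 100%. The log2 fold change of Robo1 was -1.80, with an interval from -5.14 to 1.55. Without Slit2fl/fl replicate 3 it was 0.98, the opposite direction, so the sign rested on a single library.

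Of the other members of both families, Robo3 and Slit1 had 0 counts in each of the 6 libraries, which at these depths allows at most 0.951 to 2.39 CPM in a library. Robo4, known from endothelium, had 2 counts over all libraries. Slit3 (ENSMUSG00000056427, plus strand of chromosome 11, 35121224 to 35708507) was therefore the only Slit ligand detected besides Slit2. The Slit2fl/fl libraries had 13, 1 and 2 counts of it and the Slit2th libraries 1, 12 and 7. In CPM, the values ran 4.15, 0.647 and 1.13 for Slit2fl/fl, and 0.880, 5.71 and 3.94 for Slit2th. Each genotype thus had both high and low libraries, and 3 of the 6 libraries were under the floor of 3 counts. The log2 fold change was 0.76 (95% interval -1.23 to 2.74), and it was 1.96 without Slit2fl/fl replicate 1 and 0.25 without Slit2th replicate 2. Per length, Slit3 stood at 0.326 CPM per kb and Slit2 at 1.88 CPM per kb in Slit2fl/fl. In Slit2th the values were 0.579 CPM per kb for Slit3 and 0.545 CPM per kb for Slit2. The nearness of these 2 values depends on the length used. Merged exons span 25.4 kb for Slit2 and 6.07 kb for Slit3, but their longest transcripts 9960 and 5228 bases. Over all 6 libraries, Slit2 and Slit3 had means of 1.21 and 0.453 CPM per kb by merged exons, against 3.09 and 0.525 CPM per kb by longest transcript.

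**Figure D2:**
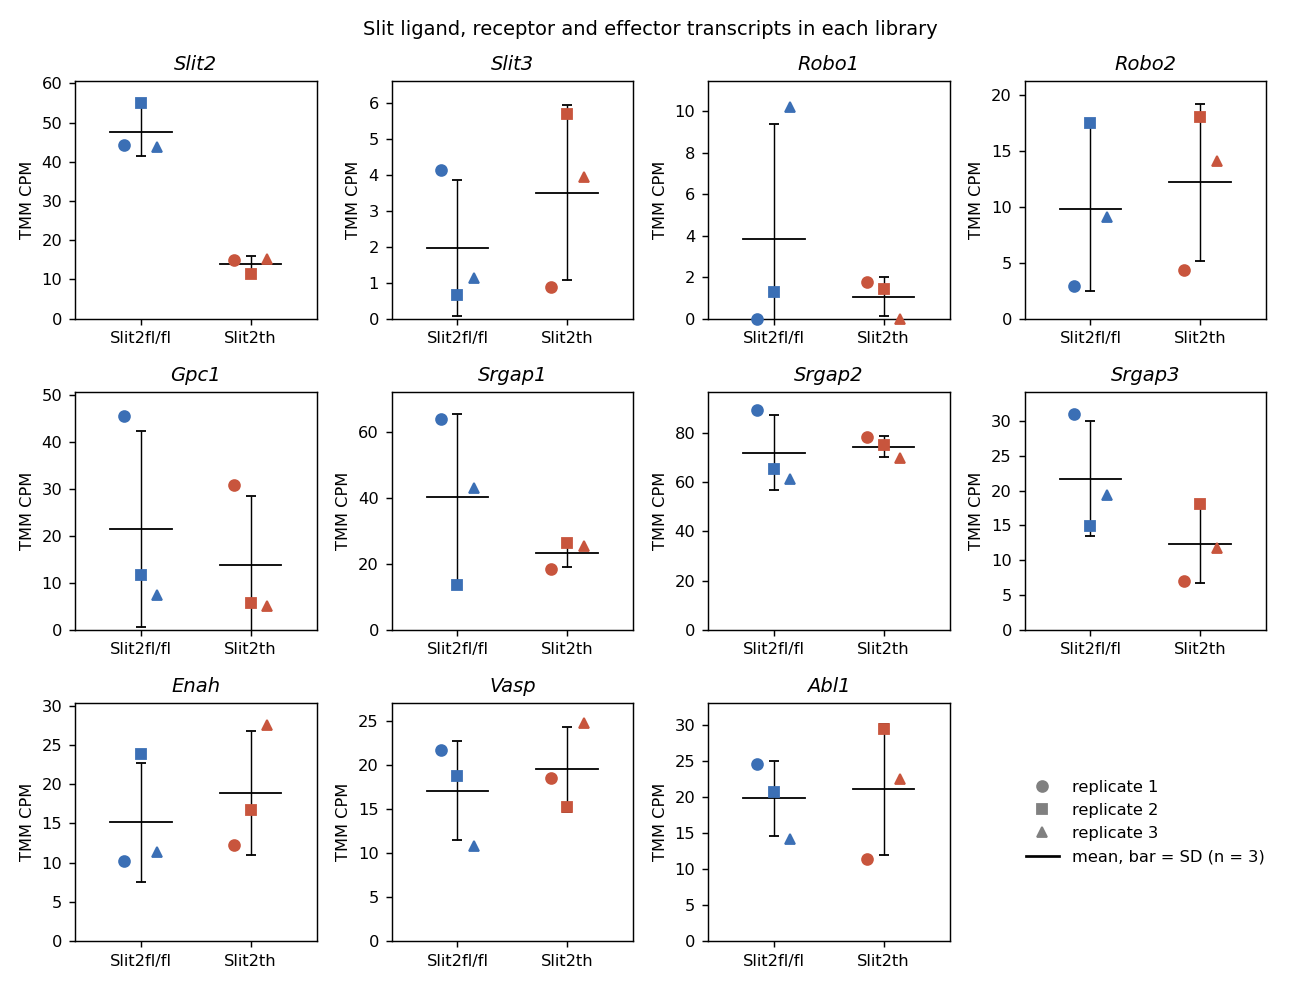
TMM-normalized CPM (vertical axis, from 0) of Slit2 and the 10 genes in each library, with circles, squares and triangles for replicates 1, 2 and 3, the mean as a line and the SD as a bar (n = 3). Slit2 is lower in all 3 Slit2th libraries, whereas every other gene overlaps between Slit2fl/fl and Slit2th.

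Gpc1 was high in a single library of each genotype. This glypican (ENSMUSG00000034220, plus strand of chromosome 1, 92831645 to 92860779) stood at 45.4, 11.6 and 7.38 CPM in Slit2fl/fl and at 30.8, 5.71 and 5.07 CPM in Slit2th. Replicate 1 was the highest in both groups, and in each group the other two libraries were at 11.6 CPM or less. The highest and lowest libraries differed 8.95-fold, the widest range among the genes with counts in every library. The log2 fold change of -0.71 (95% interval -2.66 to 1.24) became 0.50 without Slit2fl/fl replicate 1 and -2.01 without Slit2th replicate 1. Exons of Ankmy1, on the opposite strand, share 977 bases with the 5159 bases of Gpc1 exon, and the strand setting of the counting is not stated, but Ankmy1 itself had 1 count over the 6 libraries.

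Srgap2 and Srgap1 gave the most counts among the 10 genes, 860 and 418, Srgap3 gave 221, and the srGAP genes differed in how steady they were. Their promoters are shown because these closely related genes also differ in sequence upstream of the start. Each line gives the 250 bases before the RefSeq transcription start in GRCm38.p6, 5′ to 3′ on the gene's strand, with CG dinucleotides in capitals.
Srgap1, chr10:122047316-122047565, minus strand: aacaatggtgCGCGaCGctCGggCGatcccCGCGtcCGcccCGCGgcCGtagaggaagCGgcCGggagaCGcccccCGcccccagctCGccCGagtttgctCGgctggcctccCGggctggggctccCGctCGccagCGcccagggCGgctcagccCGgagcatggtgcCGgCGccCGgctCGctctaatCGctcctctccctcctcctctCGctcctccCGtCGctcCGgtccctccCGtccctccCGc
Srgap2, chr1:131527362-131527611, minus strand: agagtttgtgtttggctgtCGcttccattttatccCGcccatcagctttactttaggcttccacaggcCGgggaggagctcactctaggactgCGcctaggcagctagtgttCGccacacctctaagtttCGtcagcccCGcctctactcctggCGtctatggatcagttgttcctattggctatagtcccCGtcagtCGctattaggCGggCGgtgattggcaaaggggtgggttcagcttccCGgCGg
Srgap3, chr6:112947267-112947516, minus strand: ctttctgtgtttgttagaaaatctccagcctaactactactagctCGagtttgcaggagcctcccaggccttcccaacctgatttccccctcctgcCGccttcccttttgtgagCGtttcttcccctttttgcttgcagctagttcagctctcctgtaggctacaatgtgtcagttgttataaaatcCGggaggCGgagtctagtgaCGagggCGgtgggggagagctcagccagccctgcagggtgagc

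The windows hold 35, 14 and 7 CG dinucleotides for Srgap1, Srgap2 and Srgap3, where the median of 32536 distinct RefSeq windows of this length is 6. A GC box, searched as GGGCGG or its reverse complement CCGCCC, occurred 3 times in Srgap1, 2 times in Srgap2 and 1 time in Srgap3, and at least 1 such match occurs in 33.0% of all windows. The letters TATAAA or TTTATA were found only in the Srgap3 window (12.3% of all windows), and CCAAT or ATTGG only in that of Srgap2, where it occurred 2 times (33.8% of all windows). These are matches of letters and say nothing of factor binding.

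Srgap2 (ENSMUSG00000026425, minus strand of chromosome 1, 131285251 to 131527352) was the steadiest of the 10 genes. It stood at 89.5, 65.3 and 61.3 CPM in Slit2fl/fl and at 78.3, 75.2 and 69.9 CPM in Slit2th, so that the 3 Slit2th libraries lay inside the range of the Slit2fl/fl libraries. Its highest and lowest libraries differed 1.46-fold, where the next narrowest range was 2.30-fold, for Vasp. The log2 fold change was 0.05, and its 95% interval of -0.70 to 0.79 was the only one of the 10 to lie within -1 and 1.

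Srgap1 (ENSMUSG00000020121, minus strand of chromosome 10, 121780991 to 122047315) stood at 63.9, 13.6 and 43.1 CPM in Slit2fl/fl and at 18.5, 26.2 and 25.4 CPM in Slit2th. The Slit2fl/fl libraries surrounded the Slit2th libraries on both sides, with an SD of 25.3 CPM against 4.23 CPM. The log2 fold change was -0.79 (95% interval -2.01 to 0.43), and it was -0.27 without Slit2fl/fl replicate 1 and -1.18 without Slit2fl/fl replicate 2. Srgap3 (ENSMUSG00000030257, minus strand of chromosome 6, 112717971 to 112947266) stood at 31.0, 14.9 and 19.3 CPM in Slit2fl/fl and at 7.04, 18.1 and 11.8 CPM in Slit2th. Here 2 of the 3 Slit2th libraries were below all Slit2fl/fl libraries, and the third was between them. Srgap3 had the smallest unadjusted p of the 10 genes (0.138, adjusted p = 0.544 by edgeR's quasi-likelihood test), with a log2 fold change of -0.80 (95% interval -1.92 to 0.31) that became -0.45 without Slit2fl/fl replicate 1. Slit2fl/fl replicate 1 was the library with the most neuronal marker RNA (591.9 CPM) and the least glial marker RNA (6118.9 CPM). It was also the highest for Srgap1, Srgap3 and Gpc1, and for Srgap2 (89.5 CPM), whose log2 fold change was near 0. The part of cell content in these levels and differences was not tested.

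As shares of the 3 srGAP genes per length, Srgap2 made up 41.3, 63.4 and 42.2% of the total in Slit2fl/fl, against 69.5, 56.0 and 58.3% in Slit2th. Srgap1 made up 40.5, 18.1 and 40.9% and 22.6, 26.8 and 29.1%, in the same order. Slit2fl/fl replicate 2 thus resembled the Slit2th libraries in its srGAP composition, and the groups overlapped for both genes. Their summed level was 17.3, 8.20 and 11.6 CPM per kb in Slit2fl/fl and 8.97, 10.7 and 9.54 CPM per kb in Slit2th.

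Enah, Vasp and Abl1, which act on actin, overlapped between the groups as well. Enah (ENSMUSG00000022995, minus strand of chromosome 1, 181896384 to 182019990), also known as Mena, stood at 10.2, 23.9 and 11.3 CPM in Slit2fl/fl and at 12.3, 16.7 and 27.6 CPM in Slit2th. The highest Slit2fl/fl library was above 2 of the 3 Slit2th libraries, and the log2 fold change was 0.34 (95% interval -0.81 to 1.48), or -0.04 without Slit2th replicate 3. Vasp (ENSMUSG00000030403, minus strand of chromosome 7, 19256929 to 19271817) stood at 21.7, 18.8 and 10.8 CPM in Slit2fl/fl and at 18.5, 15.2 and 24.8 CPM in Slit2th. Its group means of 17.1 ± 5.66 and 19.5 ± 4.86 CPM (SD, n = 3 each) were closer than the libraries within a group, with a log2 fold change of 0.18 (95% interval -0.81 to 1.17), or -0.06 without Slit2fl/fl replicate 3 and -0.02 without Slit2th replicate 3. Abl1 (ENSMUSG00000026842, plus strand of chromosome 2, 31688376 to 31804227) stood at 24.6, 20.7 and 14.2 CPM in Slit2fl/fl and at 11.4, 29.5 and 22.5 CPM in Slit2th. The lowest and the highest value were both Slit2th libraries, and the log2 fold change was 0.10 (95% interval -0.94 to 1.15), or -0.20 without Slit2th replicate 2 and -0.09 without Slit2fl/fl replicate 3.

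Whether loss of Slit2 was accompanied by other levels of its receptors and effectors was then tested over the 12152 genes that reached 1 CPM in 3 or more libraries. All 10 genes passed this filter. None of them passed the test between Slit2th and Slit2fl/fl: 0 of the 10 had an adjusted p under 0.05 by edgeR's quasi-likelihood test, as had 0% of all tested genes. DESeq2, limma-voom and edgeR's exact test also called 0 of the 10, though DESeq2 gave Robo1 and Slit3 no adjusted p. Over all 12152 tested genes these 3 tools called 34, 0 and 17, so calls were rare among all genes by every tool. At an unadjusted p under 0.05 there were again 0 of the 10 by each tool. Of all tested genes, 10.8% reached this by edgeR's quasi-likelihood test, 9.81% by DESeq2, 9.88% by limma-voom and 10.9% by edgeR's exact test. The adjusted p ran from 0.544 for Srgap3 to 0.961 for Srgap2. The log2 fold changes were positive for 6 genes and negative for 4, with a median of 0.08, beside -0.05 over all tested genes. For 0 of the 10 genes did the groups separate without overlap, whereas they did for 18.4% of all tested genes (9.73% lower and 8.72% higher in Slit2th). By exact permutation (two-sided, on log2 CPM), Srgap3 had p = 0.20 and every other gene p = 0.50 or more, where 0.10 is the smallest p that 3 libraries against 3 can give. Slit2, tested in the same way, had a 95% interval from -2.62 to -0.94, an unadjusted p of 0.000932 and, after adjustment, 0.423 by edgeR's quasi-likelihood test. All 10 intervals included 0, but except for Srgap2 each also reached past -1 or 1, so a change of 1 on the log2 scale could have gone undetected in these libraries.

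**Figure D3:**
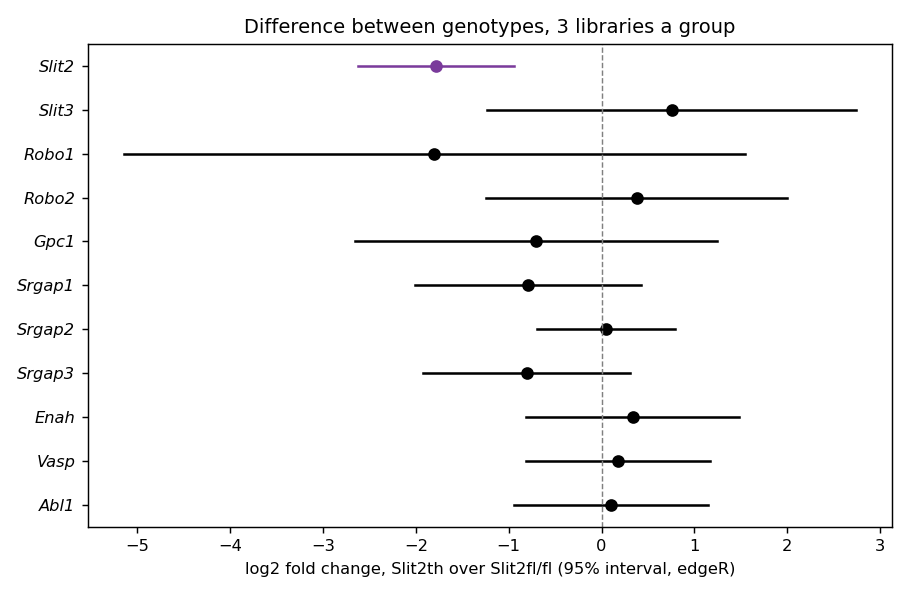
Log2 fold change of Slit2th over Slit2fl/fl (horizontal axis) for Slit2 and the 10 genes, with 95% intervals from edgeR's quasi-likelihood fit as lines. The interval of Slit2, from -2.62 to -0.94, lies below 0, and those of the 10 genes include 0, from the narrowest for Srgap2 (-0.70 to 0.79) to the widest for Robo1 (-5.14 to 1.55).

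**Figure D4:**
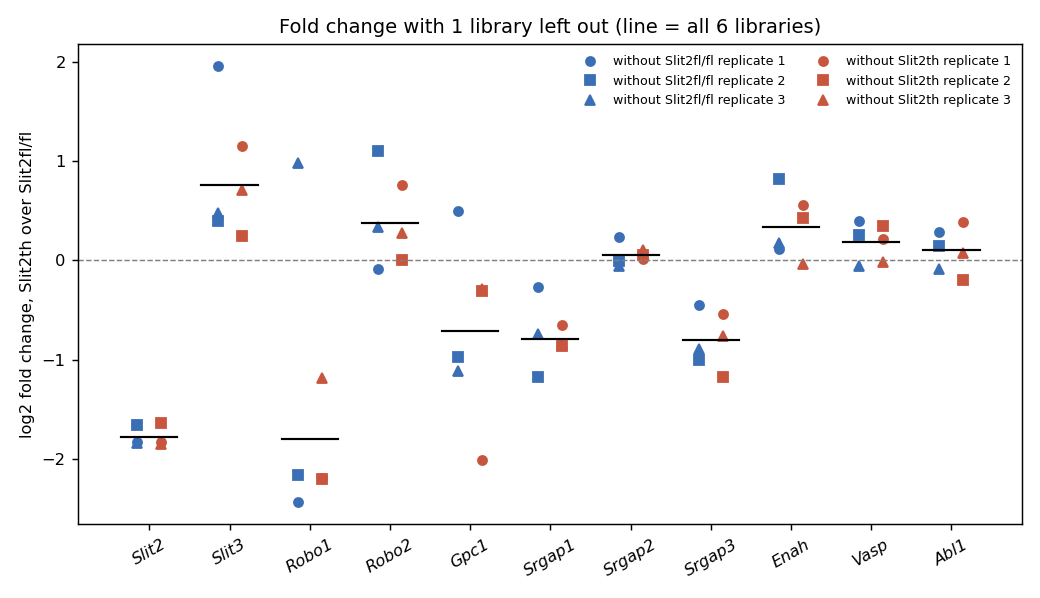
Log2 fold change of Slit2th over Slit2fl/fl (vertical axis) refitted without each library in turn, blue where a Slit2fl/fl library and red where a Slit2th library was left out, with the value from all 6 libraries as a line. Slit2, Srgap1 and Srgap3 stay below 0 in all 6 refits, whereas Robo1 reaches 0.98 without Slit2fl/fl replicate 3 and Gpc1 0.50 without Slit2fl/fl replicate 1.

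A further 50 genes of the pathway were examined, and 45 of them were tested. The list held relatives of Slit and Robo, proteases, other proteoglycans and heparan sulfate enzymes, and adaptors and GTPase regulators. Partners of Abl and Ena/VASP and further genes linked to Robo made up the rest. At an adjusted p under 0.05 by edgeR's quasi-likelihood test there were 0, while 8 of 45 had an unadjusted p under 0.05, of which 3 were higher and 5 lower in Slit2th (3.98% and 6.78% of all tested genes). Slit2, the deleted gene, is 1 of the 5. The median log2 fold change of the 45 genes was -0.02, and the groups did not overlap for 7 genes higher and 4 genes lower in Slit2th (8.72% and 9.73% of all tested genes).

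Among the proteoglycans, the glypican Gpc3 was at 8.31, 15.5 and 10.2 CPM in Slit2fl/fl and at 23.8, 34.3 and 33.2 CPM in Slit2th (log2 fold change 1.44, standard error 0.42), whereas the syndecan Sdc3 was at 17.3, 3.88 and 9.08 CPM and at 2.64, 1.90 and 1.69 CPM (log2 fold change -2.30, standard error 0.69). Neither gene overlapped between the groups, in contrast to Gpc1. However, Sdc3 had only 3, 4 and 3 counts in Slit2th, at or near the floor of 3 counts. In Slit2fl/fl it had 54, 6 and 16 counts, most of them in replicate 1. Nck1, an adaptor that links receptors to actin, was at 11.5, 22.0 and 15.3 CPM in the controls and at 25.5, 36.2 and 32.1 CPM in Slit2th (log2 fold change 0.96, standard error 0.41). Rhoa, the gene of a GTPase that controls actin contraction, was at 149, 92.5 and 119 CPM in the controls and at 85.4, 56.7 and 65.9 CPM in Slit2th (log2 fold change -0.80, standard error 0.35). For Pfn1, the gene of the actin-binding protein profilin, and Evl, the third Ena/VASP gene, the lower values in Slit2th (log2 fold changes -1.79 and -2.97) came beside a high Slit2fl/fl replicate 1. Pfn1 stood at 3030 CPM there and at 571 and 529 CPM in replicates 2 and 3, and Evl at 22.1, 1.29 and 1.70 CPM. In Slit2th, Pfn1 was at 305, 515 and 376 CPM, below every Slit2fl/fl library. Evl was at 2.64, 0.952 and 0 CPM in Slit2th, so its groups overlapped, and only 3 of the 6 libraries reached 3 counts of it. Cxcl12, the chemokine whose receptor Cxcr4 can bind Robo1, was at 3.52, 9.06 and 6.24 CPM in Slit2fl/fl and at 29.9, 20 and 24.8 CPM in Slit2th, a log2 fold change of 2.01 (standard error 0.49), while Cxcr4 itself had 2 counts in all. For the 8 genes of the list at an unadjusted p under 0.05, Slit2 included, edgeR's quasi-likelihood test gave adjusted p-values between 0.423 and 0.462. The glial marker sums, 6118.9 to 12002.4 CPM in Slit2fl/fl and 13645.9 to 20366.6 CPM in Slit2th, did not overlap between the groups either, and their part in these differences was not tested. With libraries left out, the number of the list at an unadjusted p under 0.05 ran from 4 without Slit2fl/fl replicate 1 to 12 without Slit2fl/fl replicate 2, and the share of all tested genes from 7.43% to 13.9% in the same fits.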

How the data were processed

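The authors prepared libraries with the Illumina TruSeq kit, sequenced them on a HiSeq 4000 and aligned the reads with HISAT2 2.2.1 to mm10. The labels name GRCm39 instead, so the build is not certain. The deposited values are whole-number read counts per gene, not normalized. The counting program, strand setting and annotation release are not given in the sources used here. The labels give the tissue as sympathetic ganglion, but the isolation protocol in the methods also speaks of dorsal root neurons.

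Gene positions and exon lengths came from GENCODE M21 (GRCm38), joined by gene identifier (20159 of 20173 found), and promoters from RefSeq (GRCm38.p6), which held windows for 9 of the 10 genes. The software was edgeR 4.0.16, DESeq2 1.42.0 and limma 3.58.1 under R 4.3.3. After TMM scaling, genes that reached 1 CPM in 3 or more libraries entered edgeR's quasi-likelihood test of genotype, which had no covariates, and p-values were adjusted over all tested genes by Benjamini-Hochberg. Log2 CPM used a pseudocount of 0.5. The fit was run on simulated counts with known changes, where the only requirement set was the direction of the fold changes. This check does not tell how many changes the test would miss in these libraries. The biological coefficient of variation was 50.4%. Levels per length are TMM CPM per kb of merged exon.

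The members, gene lists, tests and alternatives were chosen with earlier results of these data known. The genes named are the 10 members, Slit2, Th, the top marker genes and, from each of 5 lists of the wider pathway, up to 2 genes in each direction with the smallest unadjusted p under 0.05; Rbfox3, Robo3, Slit1, Robo4, Ankmy1 and Cxcr4 were added after their values were seen. The top neuronal, fibroblast, macrophage and endothelial or mural markers were Tubb3, Sparc, Lyz2 and Acta2, at 74.8 to 290 CPM, 3890 to 7280 CPM, 17.0 to 284 CPM and 7.94 to 69.4 CPM over the 6 libraries. Some marker genes are not reported here. Alternatives were other normalizations, tests and filters, a block for the replicate number, and fits without 1 or 2 of the libraries.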

Additional observations from a re-analysis of the deposited data

How the results depend on the processing

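Other normalizations (RLE, upper quartile, library totals), tests (DESeq2, limma-voom, edgeR's exact test) and filters were tried. In these, 0 of the 10 genes had an adjusted or unadjusted p under 0.05. Of all tested genes, 0 to 34 had the former and 9.81% to 11.4% the latter. Each computed fold change kept its direction, but Robo1 shrank to -0.15 by limma-voom. Robo1 and Slit3 were not fitted where each library had to reach 1 CPM, and DESeq2 gave them no adjusted p. With 1 library, or 1 replicate number of both groups, left out, 0 of the genes tested among the 10 had an adjusted p under 0.05. Over all tested genes, 378 of 11473 had one without replicate 1 of both groups. There was 1 without Slit2fl/fl replicate 1 and 0 in each other such fit. Robo1 was not tested without replicate 2 of both groups, nor Slit3 without replicate 3. At an unadjusted p there were 0 to 2 of the 10 and 4 to 12 of the wider list (5 without replicate 3 of both groups), where all tested genes ran from 5.80% to 17.4%. Groups did not overlap for 0 to 4 of the 10 (4 without replicate 1 of both groups), where all tested genes ran from 24.8% to 48.0%. The genes among the 10 at an unadjusted p were Srgap1 without Slit2fl/fl replicate 2 (-1.18), Gpc1 without Slit2th replicate 1 (-2.01), and Robo1 (-2.84) and Slit3 (2.33) without replicate 1 of both groups, on the log2 scale. Without replicate 1 of both groups Slit2 had a log2 fold change of -1.90 and an adjusted p of 0.00685 by edgeR's test.

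Reversed log2 fold changes without Slit2fl/fl replicate 1 were -0.09 for Robo2 and 0.50 for Gpc1, and without Slit2fl/fl replicate 2 that of Srgap2 was -0.01. Without Slit2fl/fl replicate 3 they were 0.98 for Robo1, -0.06 for Srgap2, -0.06 for Vasp and -0.09 for Abl1. Without Slit2th replicate 2 Abl1 was -0.20, and without Slit2th replicate 3 Enah was -0.04 and Vasp -0.02. Without replicate 2 of both groups they were -0.18 for Slit3, -0.06 for Srgap2 and -0.24 for Abl1. Without replicate 3 of both groups they were 1.59 for Robo1, -0.01 for Srgap2, -0.21 for Enah, -0.27 for Vasp and -0.13 for Abl1. Srgap1 and Srgap3 stayed negative in every setting tried, from -1.33 to -0.16 and from -1.45 to -0.20. With a single library left out, the log2 fold changes ran from -2.44 to 0.98 for Robo1, -0.09 to 1.10 for Robo2, -0.06 to 0.24 for Srgap2, -0.04 to 0.82 for Enah, -0.06 to 0.40 for Vasp and -0.20 to 0.39 for Abl1. The cause of these reversals was not tested.

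Same-numbered libraries deviated from their group means with correlations across genes of 0.26, 0.206 and 0.0618 for replicates 1, 2 and 3, so the numbers do not pair every library. With the replicate number as a block, 0 of the 10 genes passed before or after adjustment, and 9 genes of the wider list in place of 8 had an unadjusted p under 0.05, beside 13.3% of all tested genes in place of 10.8%. The block changed no call at adjusted p, and Robo1 moved to -0.98. Depth limits Robo1 and Slit3 most (25 and 36 counts).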
